A study of Mus musculus with 24 samples.

Results

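The module described here is a list of 33 mouse genes of sugar breakdown and of the responses to glucose and to low oxygen, measured as RNA in pancreatic islets after loss of Cop1. It was chosen by name, as the rows of the expression table whose NCBI Gene number maps to a listed symbol, and it has 3 subgroups: 17 genes of glycolysis, 5 genes of the glucose-sensing factor ChREBP and 11 genes induced by low oxygen. Of the 33, 32 had at least 1 RPKM (reads scaled to gene length and to the reads of the library) in at least 4 libraries, as did 14342 of the 28059 genes in the table, and these were tested. Hk2, the muscle-type hexokinase, was left out by that filter. It ranged from 0.381 to 3.11 RPKM and reached 1 RPKM in 3 of 22 libraries. Adm, Egln3 and Car9 reached 1 RPKM in set 2 libraries only.

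The libraries form 2 sets, each with 3 genotypes, from mice 3 to 4 months old on a mixed background, and every mouse carried floxed Cop1 alleles. In set 1, 4 libraries had the genotype Cop1 fl/fl with Etv1 fl/fl, Etv4 ko/ko, Etv5 fl/fl and Pdx1.CreERT2 (here called Etv1/4/5 libraries), 3 were Cop1 fl/fl with Pdx1.CreERT2 (Cop1 deletion) and 3 were Cop1 fl/fl without Cre (control). In set 2, 4 libraries had Cop1 fl/fl with Etv4 ko/+, Etv5 fl/fl and Pdx1.CreERT2 (Etv4/5 libraries), 4 were Cop1 deletion and 4 control. Pdx1.CreERT2 is a Cre recombinase switched on by tamoxifen and driven by the promoter of Pdx1, a gene of β cells that other islet cells can also express, while the Etv4 knockout allele is in all cells of the mouse. The protein COP1 belongs to an E3 ubiquitin ligase, and its known targets for degradation include the transcription factors ETV1, ETV4 and ETV5. The design asks which changes follow loss of COP1 and which of them also need these ETV factors. How the libraries relate to single mice is not stated, so a p-value measures the spread between libraries, which may in part be technical. In whole islets, fewer cells of a type and less RNA per cell cannot be told apart.

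Glycolysis breaks glucose down to pyruvate, and in the β cell its flux sets how much insulin is released. ChREBP, encoded by Mlxipl, pairs with MLX when sugar phosphates build up and binds a repeated E-box in its target genes, of which Txnip, Arrdc4 and Pklr are examples. When oxygen is short, HIF1A escapes the prolyl hydroxylases that mark it for degradation and turns on most genes of glycolysis together with Vegfa, Car9, Adm and others. The E-box (CACGTG) and the core of the hypoxia element (ACGTG or GCGTG) share letters, since CACGTG holds ACGTG on both strands.

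RefSeq promoters, 250 bases before to 50 after the transcript start in build GRCm38.p6, matched 32 of the 33 members with 47 windows; Ndrg1 had none. Both strands were searched. CACGTG stood in 8 of the 47 windows (17%), against 7.15% of all 32851 promoters in the table. ACGTG stood in 26 windows (55.3%), against 19.6%, and GCGTG in 25 (53.2%), against 32.4%. ETS cores, which the ETV factors bind, were in 5 windows as CCGGAA (10.6%, against 14.9%) and in 13 as AGGAAG (27.7%, against 35.4%). TGANTCA, the site of AP-1, was in 2 windows (4.26%, against 7.81%). A form of the ChREBP element, 2 copies of CACGNG with 5 bases between them, which was added to the search after the promoters had been seen, was found in 1 window of the members, that of Txnip, and in 0.0487% of all promoters. By gene, CACGTG was in 3 of 5 ChREBP genes, 3 of 17 glycolysis genes and 2 of 10 hypoxia genes, and ACGTG in 3 of 5, 10 of 17 and 9 of 10. A match is a description of letters, and binding was not measured.

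The 5 promoters printed here belong to the glycolysis gene that differed most after Cop1 deletion (Pfkfb2), to 2 ChREBP targets (Arrdc4, Txnip) and to 2 hypoxia genes with the largest spread between libraries (Car9, Egln3). Capitals mark the E-box, either hypoxia core or their reverse complements and, in Txnip, the ChREBP element at position -85 from the start. The windows are chr1:130715772-130716071 (minus strand) for Pfkfb2, chr7:68749189-68749488 (minus) for Arrdc4, chr3:96557707-96558006 (plus) for Txnip, chr4:43506776-43507075 (plus) for Car9 and chr12:54203825-54204124 (minus) for Egln3. CACGTG begins at -22 in the printed window of Pfkfb2, which has 3 windows and holds CACGTG in 1 of them, and at -193 in Arrdc4, and ACGTG lies at -18 in Car9, read on the strand opposite to the gene, and at -229 in Egln3.
Pfkfb2: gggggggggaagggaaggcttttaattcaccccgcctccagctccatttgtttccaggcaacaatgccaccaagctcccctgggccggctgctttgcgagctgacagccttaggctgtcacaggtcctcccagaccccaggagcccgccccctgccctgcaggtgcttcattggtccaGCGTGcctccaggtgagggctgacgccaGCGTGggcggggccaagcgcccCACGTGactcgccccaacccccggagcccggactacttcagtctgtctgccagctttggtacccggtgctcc
Arrdc4: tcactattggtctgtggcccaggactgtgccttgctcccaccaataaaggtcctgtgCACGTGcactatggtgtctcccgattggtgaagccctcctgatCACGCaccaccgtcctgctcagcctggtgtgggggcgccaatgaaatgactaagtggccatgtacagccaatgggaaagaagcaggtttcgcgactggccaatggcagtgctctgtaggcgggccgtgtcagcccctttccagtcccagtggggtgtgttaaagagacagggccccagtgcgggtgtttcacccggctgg
Txnip: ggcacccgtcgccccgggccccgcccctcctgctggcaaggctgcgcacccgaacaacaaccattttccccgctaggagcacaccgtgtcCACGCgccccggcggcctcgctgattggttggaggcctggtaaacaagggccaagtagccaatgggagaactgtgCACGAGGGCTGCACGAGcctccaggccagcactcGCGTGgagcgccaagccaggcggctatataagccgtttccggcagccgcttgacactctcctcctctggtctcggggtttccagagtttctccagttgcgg
Car9: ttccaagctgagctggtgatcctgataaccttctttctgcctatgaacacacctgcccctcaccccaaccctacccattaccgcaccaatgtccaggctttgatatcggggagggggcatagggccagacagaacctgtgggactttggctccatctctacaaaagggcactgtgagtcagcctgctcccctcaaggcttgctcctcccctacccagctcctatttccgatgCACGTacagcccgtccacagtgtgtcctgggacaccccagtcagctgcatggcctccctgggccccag
Egln3: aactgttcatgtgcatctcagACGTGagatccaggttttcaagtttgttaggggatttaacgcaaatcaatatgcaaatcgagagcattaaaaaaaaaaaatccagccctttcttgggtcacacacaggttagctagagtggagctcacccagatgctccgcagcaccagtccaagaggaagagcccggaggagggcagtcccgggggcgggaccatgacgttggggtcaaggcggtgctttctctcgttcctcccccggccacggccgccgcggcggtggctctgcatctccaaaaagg

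Some libraries stood apart before any comparison. Set 2 had more reads (relative depth 0.758 to 1, against 0.331 to 0.526 in set 1), and Ins1 and Ins2 made up 21% to 30.7% of RPKM there, against 31.5% to 41.1% in set 1. Cop1 was lower in every library labelled with its deletion than in every control of the same set. Esr1, part of which is fused to Cre in CreERT2, stood at 99.1 RPKM in the library labelled set 1 control replicate 2, against 0.169 and 0.191 in the other set 1 controls, so that library went against its label. Etv4 was 0.927 to 1.53 RPKM in the Etv1/4/5 libraries, against 0.0418 to 0.118 in set 1 controls, so these values do not check the loss of Etv4. Etv1 (4.89 to 5.61 RPKM) and Etv5 (2.57 to 4.85 RPKM) were no lower there than in Cop1 deletion libraries of set 1 (4.23 to 5.01 and 2.31 to 3.58 RPKM). In set 2, Etv5 had 1.39 to 1.83 RPKM in the Etv4/5 libraries and 1.23 to 2.75 in Cop1 deletion libraries, which overlap. The Etv groups are therefore named by their labels only. Xist was present in all set 2 controls and in 2 of 4 libraries of each other set 2 group. In set 2 Cop1 deletion the libraries without it were replicates 2 and 3. Xist status and genotype can therefore not be fully told apart in set 2, and a fit of set 2 libraries with Xist only is given below. In set 1 Xist ranged from 0.008216 to 29.37 RPKM in Etv1/4/5, 0.008 to 10.45 in Cop1 deletion and 0.01361 to 32.7 in control libraries. Set 2 Cop1 deletion replicate 3 and set 2 control replicate 4 were high for members of the module, and several results are given below with and without them.

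The 2 sets started from different levels of the module. In 15 of 32 members every set 2 control was above every set 1 control (46.9%, against 36.5% of all genes), and in 4 every one was below (12.5%, against 20.1%). These 15 included 7 of 11 hypoxia genes and 7 of 16 glycolysis genes. Among the hypoxia genes, Adm, Egln3 and Car9 passed the filter through set 2 libraries only, so the filter itself favoured their place in this count. Bnip3, P4ha1, P4ha2 and Hif1a were above 1 RPKM in all 22 libraries. Car9, a membrane carbonic anhydrase, averaged 1.96 RPKM in set 2 controls and 0.108 in set 1 controls. Egln3, a prolyl hydroxylase of HIF1A, averaged 5.06 RPKM in set 2 controls and 0.605 in set 1 controls. Both set 2 means rest in part on control replicate 4, and without it they were 1.13 RPKM for Car9 and 1.79 for Egln3. Pfkp, the platelet-type phosphofructokinase, averaged 33.7 RPKM in set 2 controls and 8.2 in set 1 controls.

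The ChREBP genes went the other way in part. Txnip, an arrestin-like protein that binds thioredoxin, averaged 36.7 RPKM in set 2 controls and 290 in set 1 controls. Mlxipl averaged 17.1 and 82.1 RPKM in the same order, while Arrdc4 and Pklr overlapped between the sets. Gm15441, a transcript that overlaps Txnip on the opposite strand, averaged 14.1 RPKM in set 2 controls and 118 in set 1 controls. Strand use in counting is not given, so the 2 genes cannot be told apart with certainty. The sets also differ in depth and in insulin share, whose part in these differences was not tested, and all tests below compare genotypes within a set.

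**Figure D1:**
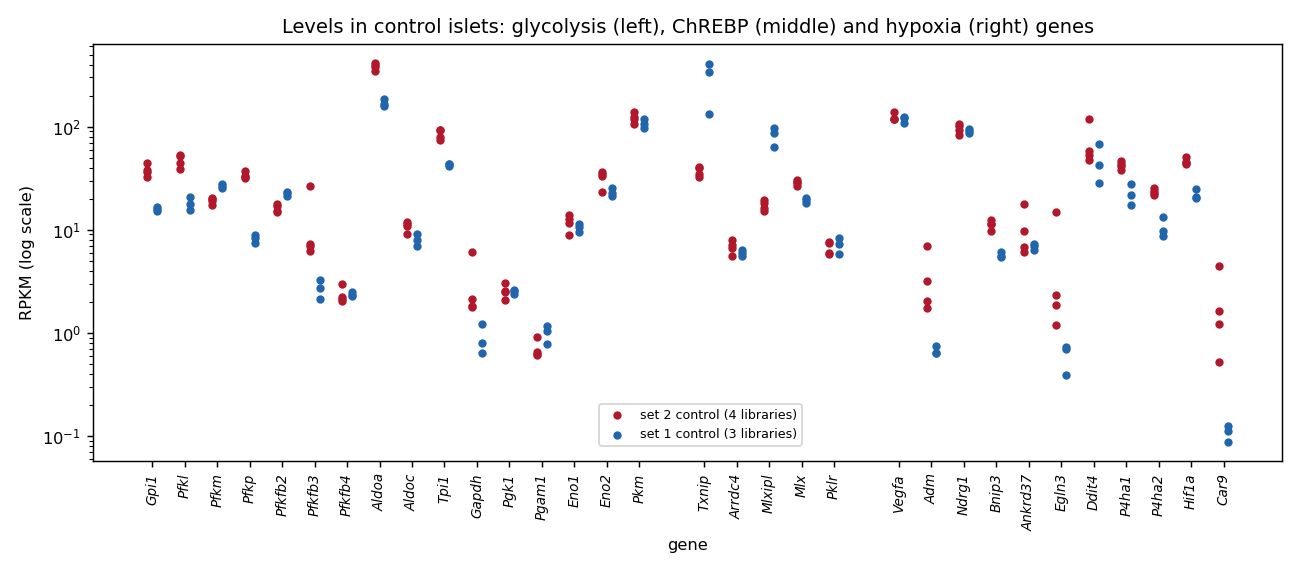
RPKM of the 32 members in each control library (vertical, log scale), with genes side by side: glycolysis left, ChREBP in the middle and hypoxia right. Points are libraries, red for set 2 (n = 4) and blue for set 1 (n = 3). Many hypoxia and several glycolysis genes are higher in set 2. The gap is widest in Car9, which averaged 1.96 against 0.108 RPKM (1.13 in set 2 without control replicate 4). Txnip and Mlxipl are far lower in set 2.

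After deletion of Cop1, 5 of the 32 members passed the test over both sets: 1 rose and 4 fell. Arrdc4 rose, and Pfkfb2, Pklr, Vegfa and Ndrg1 fell. With an adjusted p under 0.05 (limma on log2(RPKM + 0.5), Benjamini-Hochberg over all 14342 genes), the members' share of 15.6% stood beside 20.1% for all genes, of which 9.57% rose and 10.5% fell, a share below that of all genes. The median log2 fold change was 0.01 over the 32 members and -0.02 over all genes. Within set 1, 2 members fell and 0 rose (6.25%), against 8.33% of all genes, of which 4.04% rose and 4.29% fell. Within set 2, 3 members rose and 4 fell (21.9%), against 18.8% of all genes, of which 9.09% rose and 9.75% fell. Groups did not overlap in 9 members in set 1 (28.1%, against 29.9%) and in 6 members in set 2 (18.8%, against 16.1%). In a fit of only the 2 groups compared, 1 of the 7 members called in set 2, Pfkfb2, still passed, and the other 6 had adjusted p-values of 0.126 to 0.312, while calls over all genes were 3.23%. In set 1 the same kind of fit called 5 members, 1 higher and 4 lower. Calls over all genes in set 1 ran from 955 to 5429 over the 12 alternatives planned besides leaving out 1 library. The plot of fold changes by member shows the 3 contrasts side by side.

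**Figure D2:**
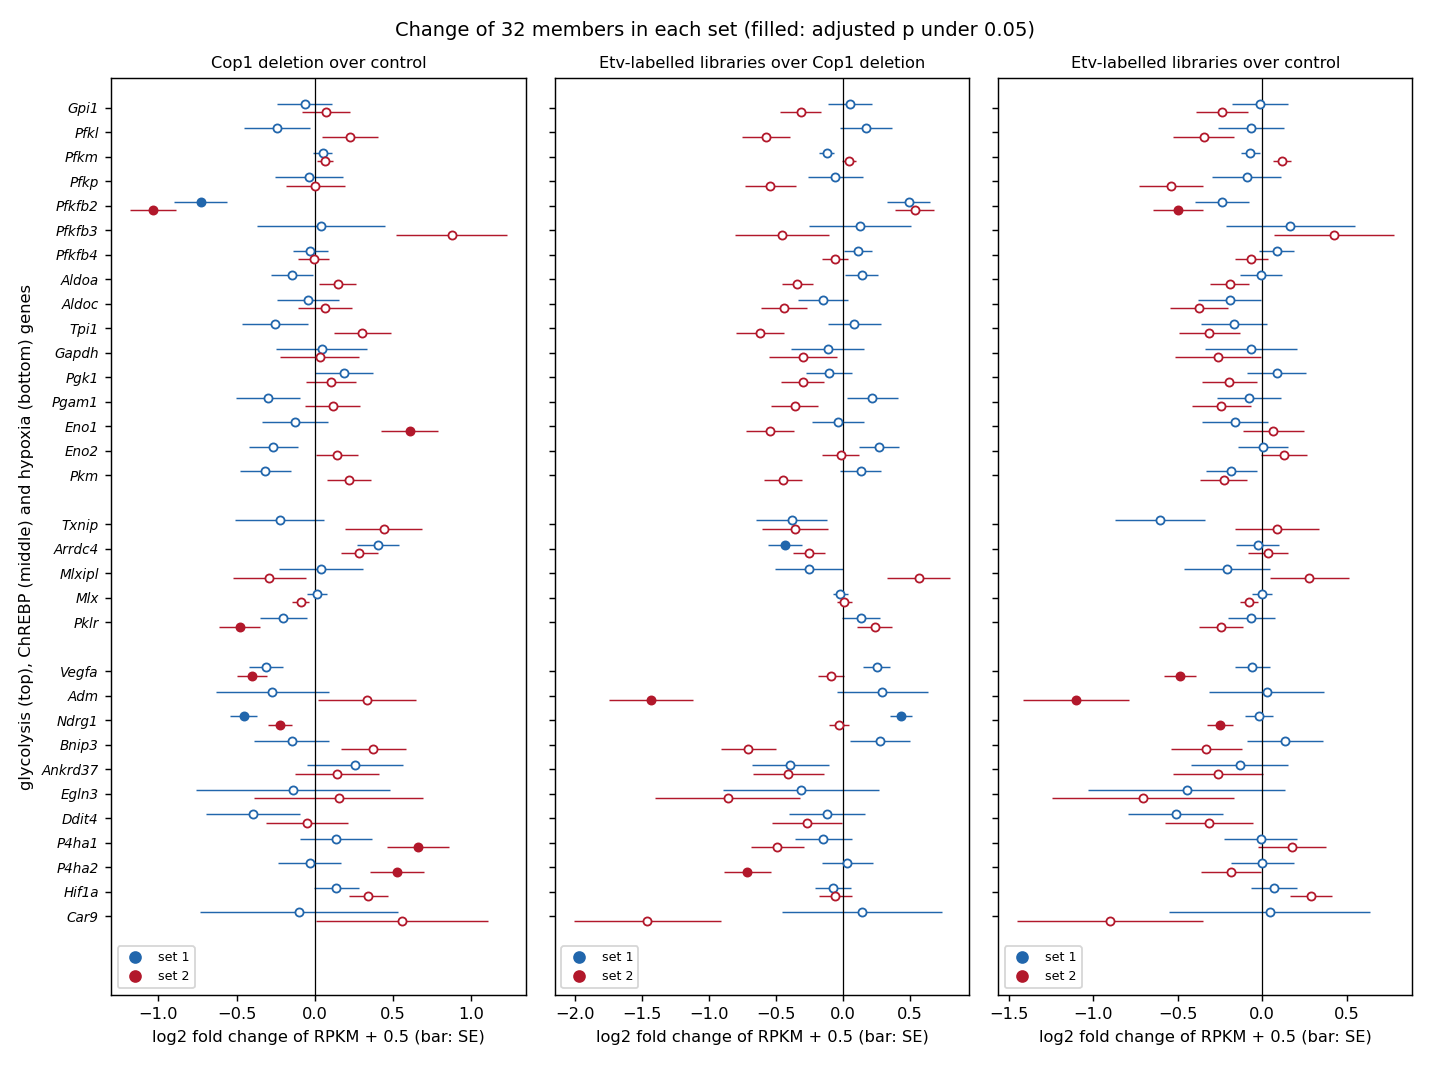
Log2 fold change of the 32 members by subgroup, in 3 panels: Cop1 deletion over control, libraries labelled with Etv alleles over Cop1 deletion, and the same libraries over control. Blue is set 1, red is set 2, bars are the SE from limma and filled points have an adjusted p under 0.05. Pfkfb2 is lowest of all in the first panel in both sets, and most hypoxia and glycolysis genes of set 2 lie below 0 in the second panel.

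Among glycolysis genes, Pfkfb2 fell in both sets. Pfkfb2 (NCBI Gene 18640, chromosome 1) encodes the bifunctional enzyme that makes and removes fructose bisphosphate, the activator of phosphofructokinase, and in β cells it is known as a partner of glucokinase. In set 1 its levels were 13.3, 13 and 13.8 RPKM in Cop1 deletion libraries, against 23.4, 22.9 and 21.3 in controls. In set 2 they were 9.6, 4.81, 7.3 and 9.9 RPKM in Cop1 deletion libraries, against 17.9, 17.1, 14.8 and 15 in controls. Every Cop1 deletion library was below every control of its set, and replicate 2 was lowest in set 2. The fold change was 0.603 in set 1 (log2 -0.73, SE 0.17, adjusted p = 0.00917), 0.488 in set 2 (adjusted p = 7.38e-05) and 0.542 over both (log2 -0.88, SE 0.11, adjusted p = 1.52e-05). All 3 calls held in each of 22 fits that left out 1 library. With each library scaled to equal total RPKM, the set 1 value was -0.60 and its adjusted p 0.0534. Yod1, which overlaps Pfkfb2 on the opposite strand, differed by -0.10 on the log2 scale in set 1 (adjusted p = 0.886). In set 2 Yod1 fell by 0.65 (adjusted p = 0.0242). Of the short sequence windows of the Pfkfb2 transcript, 25.1% also occur in Gm29427, a protein-coding gene that overlaps it on the same strand. Reads from that shared part cannot be told apart, and the level of Gm29427 is not given here.

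The other 15 tested glycolysis genes included 1 that passed in 1 set and 0 that passed over both. Eno1, an enolase, had 14.7, 19.3, 29.6 and 12.6 RPKM in set 2 Cop1 deletion libraries, against 11.7, 12.8, 8.93 and 13.8 in set 2 controls, and it rose 1.52-fold (log2 0.61, SE 0.18, adjusted p = 0.0248). The groups overlapped, and replicate 3 was highest. Without that replicate the log2 value was 0.38 with an adjusted p of 0.0635. It also did not pass without Cop1 deletion replicate 2 (adjusted p = 0.0564) or control replicates 1 (adjusted p = 0.0513) and 3 (adjusted p = 0.0852). In its transcript, 72.2% of 50-base windows also occur in other genes, so its level is uncertain. Gapdh, Pgk1 and Pgam1, later enzymes of the pathway, are uncertain for the same reason, at 82.5%, 68.0% and 41.5% of windows.

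Pfkfb3, the form of the bifunctional enzyme that favours synthesis, had 13.6, 15.3, 37.9 and 13.6 RPKM in set 2 Cop1 deletion libraries, against 7.32, 6.95, 6.21 and 26.7 in set 2 controls. All Cop1 deletion libraries stood above 3 of the 4 controls, and control replicate 4 was above 3 of the 4 Cop1 deletion libraries. Over all libraries its log2 fold change was 0.88 (SE 0.35, adjusted p = 0.0882). Without control replicate 4 it was 1.35 (adjusted p = 0.00109), and without both high libraries it was 1.0 (adjusted p = 0.000171). In set 1 Pfkfb3 was far lower, at 2.82, 3.13 and 2.35 RPKM after Cop1 deletion and 2.74, 3.23 and 2.12 in controls, and the groups overlapped.

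The most abundant glycolysis genes did not pass. Aldoa, the muscle aldolase, had 146 to 160 RPKM after Cop1 deletion and 160 to 186 in controls of set 1, and 347 to 599 and 347 to 415 in set 2. Pkm, a pyruvate kinase, had 80.1 to 90.8 RPKM after Cop1 deletion and 96 to 118 in controls of set 1, and in set 2 it had 107 to 212 and 105 to 139. Pfkp in set 2 had 28.8, 28.7, 63.9 and 24.5 RPKM after Cop1 deletion, against 33.3, 32.3, 31.6 and 37.5 in controls. With its high replicate 3 left out, the log2 value was -0.30 (adjusted p = 0.0264). Pitrm1, a metalloprotease that overlaps Pfkp on the opposite strand, fell by 0.46 in set 2 with all libraries (adjusted p = 0.00217), and reads from the stretch they share cannot be told apart. The 16 tested genes had a median log2 fold change of -0.10 in set 1, with 12 of 16 below 0, and of 0.11 in set 2. Without Cop1 deletion replicate 3 the set 2 median was -0.04, and without both high libraries it was 0.04.

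**Figure D3:**
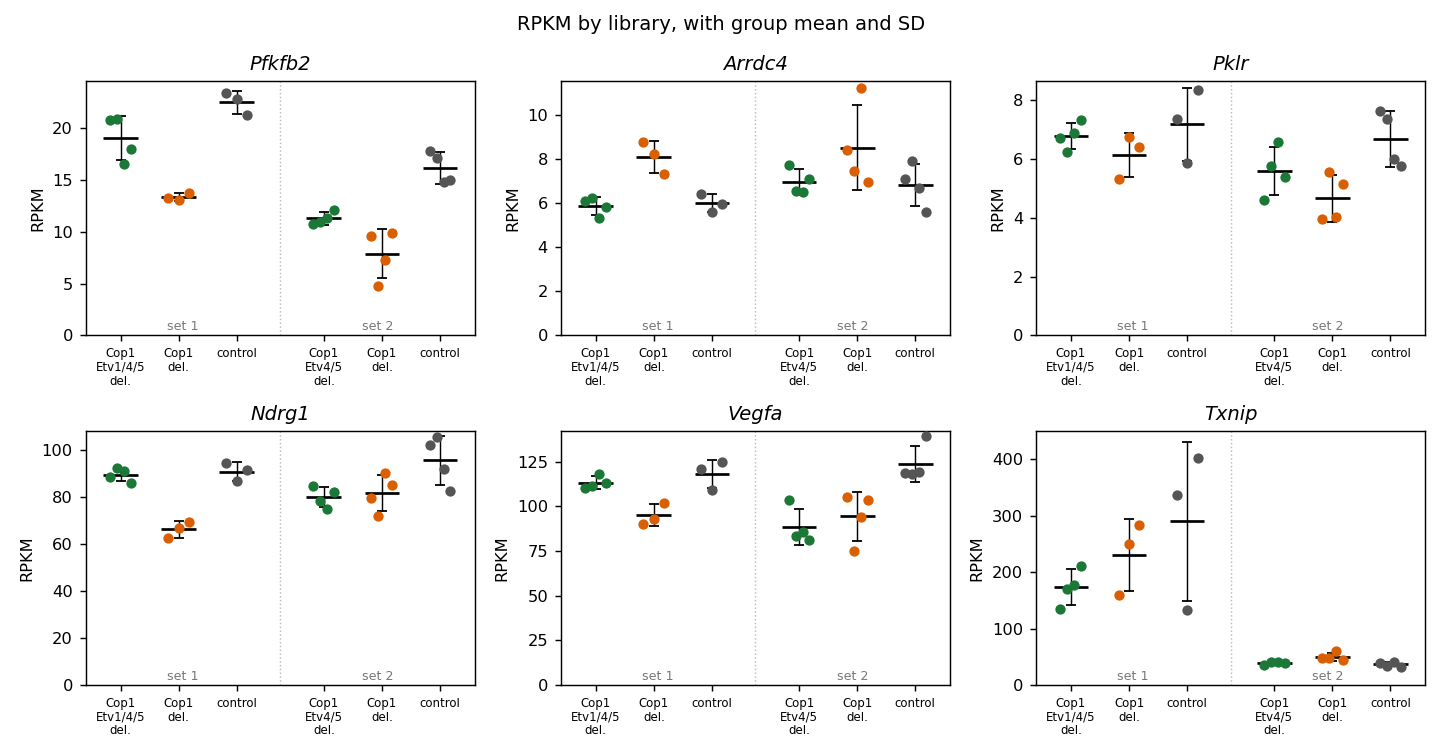
RPKM of Pfkfb2, Arrdc4, Pklr, Ndrg1, Vegfa and Txnip in each library. In each set the Etv group is left, Cop1 deletion in the middle and control right, points are libraries, lines are means and bars are SD. Pfkfb2 is lowest in the Cop1 deletion libraries of both sets, at 13 to 13.8 and 4.81 to 9.9 RPKM, and Txnip separates the sets.

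Of the 5 ChREBP genes, 1 rose and 1 fell over both sets. Arrdc4 (NCBI Gene 66412, chromosome 7), an arrestin-like protein related to TXNIP, had 8.77, 8.25 and 7.33 RPKM in set 1 Cop1 deletion libraries, against 6.41, 5.61 and 5.97 in set 1 controls. In set 2 it had 8.41, 7.49, 11.3 and 6.96 RPKM in Cop1 deletion libraries, against 7.11, 7.91, 6.72 and 5.62 in controls. The groups did not overlap in set 1 and overlapped in set 2. Over both sets Arrdc4 rose 1.27-fold (log2 0.35, SE 0.09, adjusted p = 0.0104), with 0.41 in set 1 (adjusted p = 0.0754) and 0.29 in set 2 (adjusted p = 0.0966). The call over both sets held in each of 22 fits that left out 1 library. In set 1 it was gained without set 2 Cop1 deletion replicate 3 (adjusted p = 0.0225) or set 2 control replicate 4 (adjusted p = 0.0466), and in set 2 without Cop1 deletion replicate 4 (adjusted p = 0.0364). Over both sets, scaling to equal totals without the insulin genes gave 0.27 (adjusted p = 0.0506), and a fit of only the groups compared gave an adjusted p of 0.0518.

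Pklr (NCBI Gene 18770, chromosome 3) encodes the pyruvate kinase of liver and red cells and is also expressed in β cells. It had 3.97, 5.55, 4.02 and 5.14 RPKM in set 2 Cop1 deletion libraries, against 7.65, 7.37, 6 and 5.76 in set 2 controls. Every Cop1 deletion library was below every control, and Pklr fell to 0.717-fold (log2 -0.48, SE 0.13, adjusted p = 0.014). In set 1 it had 5.31, 6.75 and 6.39 RPKM after Cop1 deletion and 7.35, 5.85 and 8.34 in controls, which overlap (log2 -0.20, adjusted p = 0.527). Over both sets the value was -0.34 (SE 0.10, adjusted p = 0.0193). It did not pass without set 1 Cop1 deletion replicate 2 (adjusted p = 0.0627) or set 1 control replicate 3 (adjusted p = 0.0603), nor did set 2 without its control replicate 1 (adjusted p = 0.0516). In a fit of only the groups compared, the adjusted p was 0.126 in set 2 and 0.0626 over both sets. Hcn3, which overlaps Pklr on the opposite strand, differed by -0.23 in set 2 (adjusted p = 0.142).

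The other 3 ChREBP genes did not pass. Txnip had 159, 249 and 282 RPKM in set 1 Cop1 deletion libraries, against 336, 132 and 401 in set 1 controls. The low control is the library that carried Esr1. With it the log2 fold change was -0.22 (adjusted p = 0.765), and without it -0.72 (adjusted p = 0.0334). In set 2 Txnip had 48.1, 48.6, 60.1 and 44.1 RPKM after Cop1 deletion, against 39.6, 34.4, 40.4 and 32.6 in controls. Every Cop1 deletion library was above every control there, and the log2 value was 0.44 (SE 0.25, adjusted p = 0.217). The difference between the 2 sets was -0.67 (set 1 minus set 2, adjusted p = 0.383), and -1.16 without the library with Esr1 (adjusted p = 0.0156). Mlxipl itself had 76.2 to 94.2 RPKM after Cop1 deletion and 63.7 to 96.8 in controls of set 1, and 7.11 to 21.6 and 15.1 to 19.3 in set 2. Mlx, its partner, stayed between 18.1 and 20.3 RPKM in the 6 libraries of this contrast in set 1 and between 24.6 and 30.1 in the 8 of set 2.

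Of the 11 hypoxia genes, 2 fell over both sets: Ndrg1 and Vegfa. Ndrg1 (NCBI Gene 17988, chromosome 15), a cytoplasmic protein of stress and differentiation, had 62.6, 67.1 and 69.3 RPKM in set 1 Cop1 deletion libraries, against 94.5, 86.8 and 91.7 in set 1 controls. In set 2 it had 79.6, 72.2, 90.4 and 85.3 RPKM after Cop1 deletion, against 102, 106, 92.2 and 82.6 in controls. The groups were apart in set 1 and overlapped in set 2. Ndrg1 fell to 0.73-fold in set 1 (log2 -0.45, SE 0.09, adjusted p = 0.00213), to 0.857-fold in set 2 (adjusted p = 0.0446) and to 0.791-fold over both (log2 -0.34, SE 0.06, adjusted p = 0.000298). The calls in set 1 and over both sets held in each of 22 fits that left out 1 library. The set 2 call held in 7 of the 22, with an adjusted p up to 0.147 without control replicate 2, and it was lost without Cop1 deletion replicates 1 and 2, without control replicates 1, 2 and 3 and without 10 libraries of other groups.

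Vegfa (NCBI Gene 22339, chromosome 17), the growth factor that keeps islet vessels, was among the most abundant hypoxia genes. It had 90.3, 93 and 102 RPKM in set 1 Cop1 deletion libraries, against 121, 109 and 125 in set 1 controls. In set 2 it had 105, 74.8, 94 and 103 RPKM after Cop1 deletion, against 119, 118, 119 and 139 in controls. No library overlapped in either set. Vegfa fell to 0.758-fold in set 2 (log2 -0.40, SE 0.10, adjusted p = 0.00656) and to 0.781-fold over both (adjusted p = 0.00163), and its set 1 value of -0.31 had an adjusted p of 0.0903. The set 2 call held in each of 22 fits that left out 1 library. In a fit of only the 2 groups compared its adjusted p was 0.131, and with 3 outlying set 2 libraries left out together the value was -0.19 (adjusted p = 0.141). In set 1 the value passed without set 2 Cop1 deletion replicate 2 (adjusted p = 0.0206).

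Both listed genes of collagen prolyl hydroxylase were called higher in set 2 in the main fit. P4ha1 (NCBI Gene 18451, chromosome 10) had 57.5, 53.9, 126 and 51.9 RPKM in set 2 Cop1 deletion libraries, against 43.3, 41.5, 37.7 and 46.9 in set 2 controls, without overlap. The fold change was 1.58 (log2 0.66, SE 0.20, adjusted p = 0.0259). Replicate 3 stood far above the others, and without it the log2 value was 0.36 (adjusted p = 0.0353). It did not pass without control replicates 2 (adjusted p = 0.0575) and 3 (adjusted p = 0.068). P4ha2 (NCBI Gene 18452, chromosome 11) had 32.2, 27.5, 55 and 27.3 RPKM after Cop1 deletion, against 25.3, 21.8, 22.9 and 23.8 in controls. Again the groups were apart and replicate 3 was highest. P4ha2 rose 1.44-fold (log2 0.53, SE 0.18, adjusted p = 0.0415), and without replicate 3 the value was 0.30 (adjusted p = 0.113). The call held in 10 of 22 fits that left out 1 library and in 0 of the 4 that left out a control of set 2 (adjusted p 0.0527 to 0.0998). In set 1, P4ha1 had 23.5 to 24.4 RPKM after Cop1 deletion and 17.3 to 27.6 in controls.

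Hif1a, the oxygen-regulated factor itself, had 70.3, 39.9, 71.1 and 58 RPKM in set 2 Cop1 deletion libraries, against 43.3, 44.5, 44.9 and 51 in set 2 controls. Replicate 2 was below all controls and the other 3 were above all of them. The log2 value was 0.34 (SE 0.12, adjusted p = 0.0592) with it and 0.52 (adjusted p = 0.000143) without it. It also passed without control replicate 4 (0.39, adjusted p = 0.0396). In set 1 Hif1a had 25.2, 24.1 and 23.1 RPKM after Cop1 deletion and 20.6, 24.6 and 20.6 in controls. The remaining 6 hypoxia genes did not pass in either set.

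The direction of the hypoxia list in set 2 depended on which of the 2 high libraries were in the fit. It turned when Cop1 deletion replicate 3 was left out and control replicate 4 was kept, and not when both were left out. With all libraries 3 members of the module rose, 4 fell and 24 of 32 values were positive, with a hypoxia median of 0.33. Without set 2 Cop1 deletion replicate 3, 1 rose and 5 fell, 14 of 32 were positive and the hypoxia median was -0.13. With both high libraries out, 3 rose and 4 fell, 22 were positive and the hypoxia median was 0.28. Scaling also moved the split: with equal totals 0 rose and 4 fell, and with equal totals that leave out the insulin genes 0 rose and 5 fell, with 15 of 32 positive. That last scaling moved the median of all genes to -0.16. Calls over all genes in this contrast were 2702 in the main fit. They ran from 1935 to 3418 with 1 library left out, and from 2412 to 3345 in the 2 fits that left out 2 or 3 libraries. For the scalings no separate count over all genes is given. The moves in members called therefore cannot be read as belonging to the module alone. In set 1 the hypoxia median was -0.14.

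Set 2 Cop1 deletion replicate 3 was highest of its group in 25 of 32 members (78.1%), against 24.3% of all genes. This included 10 of 11 hypoxia genes and 13 of 16 glycolysis genes, and 10 of 32 members were at least 2-fold above the median of the other 3 libraries, against 3.28% of all genes. Set 2 control replicate 4 was highest of its group in 22 of 32 members, against 36.1% of all genes, and at least 2-fold above in 7 of 32, against 4.4%. The plot of 6 hypoxia-responsive genes by library shows both. Car9 had 0.339, 1.94, 12.5 and 2.83 RPKM in set 2 Cop1 deletion libraries, against 1.22, 0.526, 1.64 and 4.46 in set 2 controls, with the highest value of each group in these 2 libraries. Egln3 had 0.999, 4.36, 10.6 and 2.75 RPKM after Cop1 deletion, against 1.18, 1.85, 2.32 and 14.9 in controls. Ddit4, an inhibitor of mTORC1 signalling, had 43.9, 67.7, 91.4 and 54.1 RPKM after Cop1 deletion, against 57.7, 47, 52.9 and 118 in controls. The same 2 libraries were again highest.

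**Figure D4:**
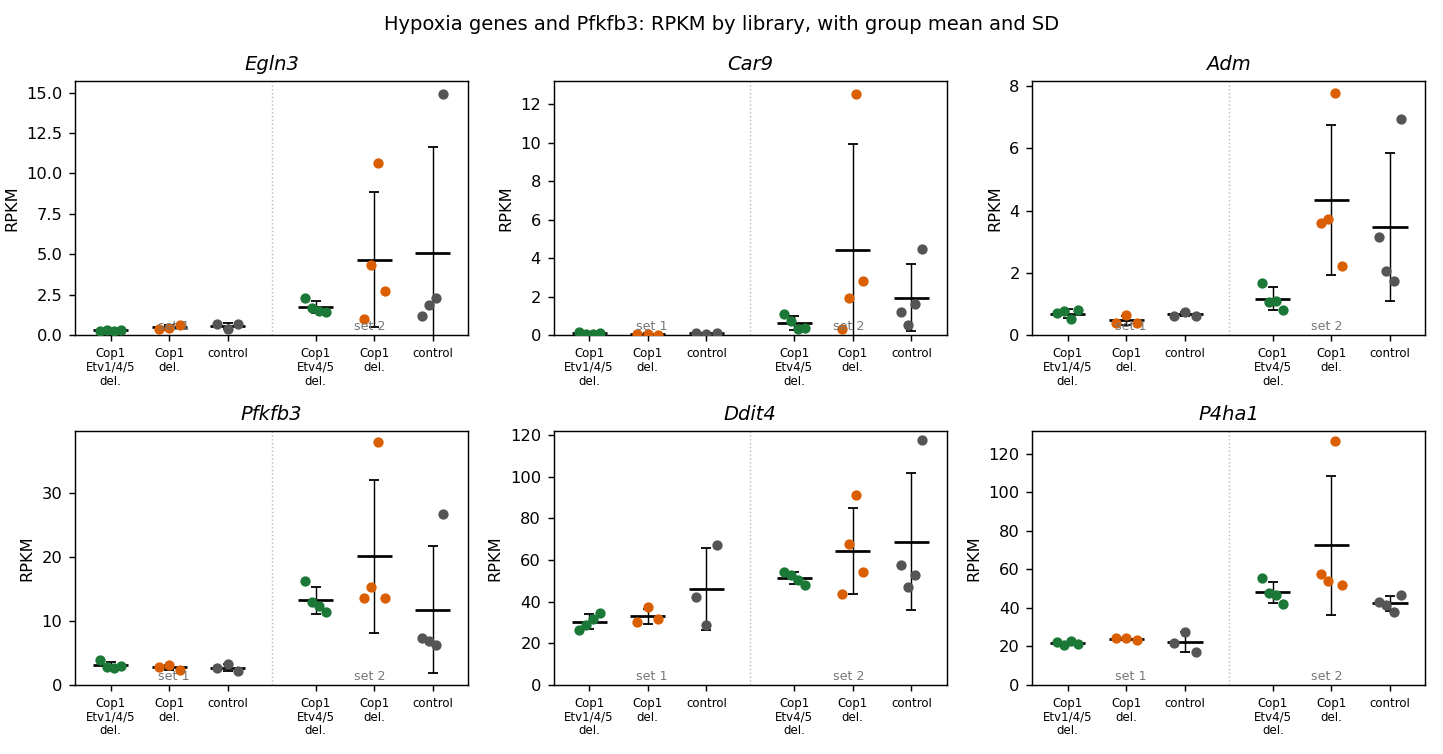
RPKM of Egln3, Car9, Adm, Pfkfb3, Ddit4 and P4ha1 in each library. In each set the Etv group is left, Cop1 deletion in the middle and control right, points are libraries, lines are means and bars are SD. In set 2, 1 Cop1 deletion library (Egln3 10.6, Car9 12.5) and 1 control library (Egln3 14.9, Car9 4.46) stand above the rest.

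Markers of other cells also moved in these libraries. Set 2 Cop1 deletion replicate 3 had the lowest endocrine marker sum of its group, 197700 RPKM, against 213700 to 283500 in the other 3 libraries. Set 2 control replicate 4 likewise had the lowest of its group, 198800 RPKM, against 254400 to 266600. In Cop1 deletion replicate 3 the summed level of 12 acinar markers was 25000 RPKM, against 4430, 11090 and 11390 in the other 3, and its ductal sum of 4830 RPKM (others 3090 to 4383) and stromal sum of 172.2 RPKM (others 18.5 to 113.6) were also highest. Control replicate 4 had the lowest acinar sum of all set 2 controls, 876.9, against 2747 to 12960, and the lowest immune sum, 103, against 144.7 to 179.3. Its 11 endothelial markers summed to 342.7 RPKM, against 196.6 to 237.8 in the other 3 controls. Over the groups, the 11 ductal markers summed to 1410 to 3005 RPKM in Etv4/5, 3090 to 4830 in Cop1 deletion and 1458 to 1892 in control libraries. The 13 immune markers summed to 196.7 to 243.1, 221.2 to 527.5 and 103 to 179.3 RPKM in the same order. No listed marker of these types was at 0 in all libraries, and their part in the module's values was not tested.

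The spread within groups also differed. The median SD of log2 values in set 2 Cop1 deletion libraries was 0.61 for the hypoxia genes and 0.46 for glycolysis genes, against 0.21 for all genes. In Etv4/5 libraries it was 0.16, 0.11 and 0.07, and in set 2 controls 0.16 for hypoxia genes and 0.18 for glycolysis genes. In set 1 groups it was 0.09 to 0.10 for hypoxia genes and 0.08 to 0.12 for glycolysis genes. The main fit used a single spread estimate for each gene over all groups, so its set 1 tests also carried the spread of set 2. Leaving out a library of another group keeps the fold change of a contrast and alters this estimate. The map of deviations shows how far each library lay from the others of its group for every member.

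**Figure D5:**
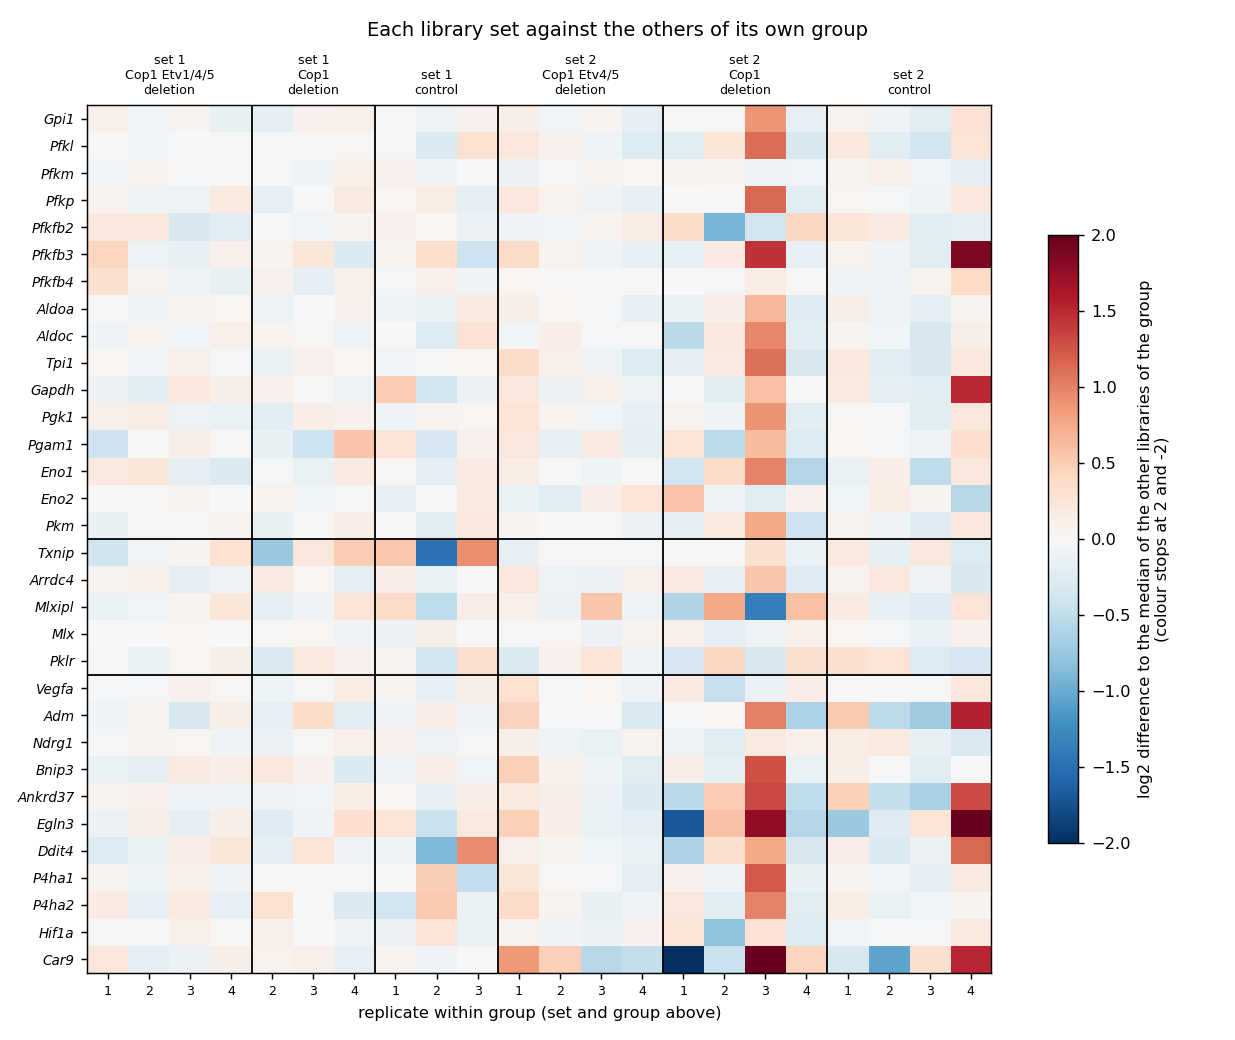
Log2 difference of each library from the median of the other libraries of its group, for the 32 members by subgroup, in the 22 libraries. The colour scale stops at 2 in either direction. Set 2 Cop1 deletion replicate 3 is high in most glycolysis and hypoxia genes, and set 2 control replicate 4 in several, and set 1 libraries lie nearer 0.

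In the set 1 libraries labelled Etv1/4/5, Ndrg1 was higher and Arrdc4 lower than in Cop1 deletion libraries, and no other member passed in the main fit. In the same contrast Etv4 was higher (log2 1.63, adjusted p = 3.94e-05), and Etv1 and Etv5 differed by 0.15 (adjusted p = 0.817) and 0.33 (adjusted p = 0.683), so the deletions named in the labels were not seen in these genes' own RNA. These 2 of 32 members (6.25%) stood beside 6.34% of all genes, of which 3.65% rose and 2.69% fell. In a fit of only the 2 groups compared, 7 members passed, 5 higher and 2 lower. Calls over all genes in this contrast ran from 721 to 3712 over the 12 alternatives planned besides leaving out 1 library. Ndrg1 had 88.6, 92.7, 91.3 and 86.2 RPKM in Etv1/4/5 libraries, against 62.6, 67.1 and 69.3 in Cop1 deletion libraries, without overlap. It rose 1.35-fold (log2 0.43, SE 0.08, adjusted p = 0.00219). Arrdc4 had 6.12, 6.26, 5.31 and 5.82 RPKM in Etv1/4/5 libraries, against 8.77, 8.25 and 7.33 in Cop1 deletion libraries, also without overlap. It fell to 0.741-fold (log2 -0.43, SE 0.13, adjusted p = 0.049), which did not pass without any 1 of the 7 libraries compared (adjusted p 0.066 to 0.192) and held in 5 of 22 fits that left out 1 library.

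Pfkfb2 lay between the other groups of its set. It had 20.8, 20.9, 16.6 and 18 RPKM in Etv1/4/5 libraries, all above the Cop1 deletion libraries (13 to 13.8) and all below the controls (21.3 to 23.4). The log2 difference from Cop1 deletion was 0.49 (SE 0.16, adjusted p = 0.0711). With set 2 Cop1 deletion replicate 2 or 4 left out of the fit it passed (adjusted p 0.00279 and 0.0494). Vegfa had 110, 111, 118 and 113 RPKM in Etv1/4/5 libraries, against 90.3, 93 and 102 in Cop1 deletion libraries, and its difference of 0.25 did not pass (adjusted p = 0.173). Groups did not overlap in 13 of 32 members (40.6%), against 30.7% of all genes.

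In set 2, the Etv4/5 libraries had lower Adm and P4ha2 than Cop1 deletion libraries, 2 of 32 members (6.25%) beside 1.73% of all genes, of which 0.676% rose and 1.05% fell. Adm (NCBI Gene 11535, chromosome 7) encodes adrenomedullin, a vasodilator peptide. It had 1.68, 1.08, 1.12 and 0.815 RPKM in Etv4/5 libraries, against 3.61, 3.72, 7.78 and 2.22 in Cop1 deletion libraries, without overlap. The fold change was 0.37 (log2 -1.43, SE 0.31, adjusted p = 0.0254). P4ha2 had 25.2, 20.2, 18.1 and 19.3 RPKM in Etv4/5 libraries, against 32.2, 27.5, 55 and 27.3 in Cop1 deletion libraries. It fell to 0.611-fold (log2 -0.71, SE 0.18, adjusted p = 0.0437). Without Cop1 deletion replicate 3, neither passed: Adm was at -1.13 (adjusted p = 0.0563) and P4ha2 at -0.48 (adjusted p = 0.0634). Adm also did not pass without Cop1 deletion replicate 2 (adjusted p = 0.0587) or without Etv4/5 replicates 2, 3 and 4 (adjusted p 0.0846 to 0.0984). P4ha2 passed in 6 of 22 fits that left out 1 library, and among the libraries compared it was lost without Etv4/5 replicates 2, 3 and 4 and Cop1 deletion replicates 2 and 3, with an adjusted p up to 0.141. In a fit of only the 2 groups compared neither passed (adjusted p = 0.208 for Adm and 0.26 for P4ha2), and calls over all genes were 0.00697%.

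All 11 hypoxia values and 14 of 16 glycolysis values in this contrast were below 0, with medians of -0.49 and -0.35, against 0.01 for all genes. Without replicate 3 the medians were -0.19 and -0.15, 9 of 11 hypoxia values were below 0 and 0 of 32 members passed. Calls over all genes in this contrast were 248 in the main fit and 15 to 775 with 1 library left out. Without Cop1 deletion replicate 4, 10 of 32 passed, while calls over all genes also went up, to 5.4%. The 10 included Pkm at -0.58 (adjusted p = 0.0177) and Tpi1, the triose phosphate isomerase, at -0.76 (adjusted p = 0.023). Groups did not overlap in 4 of 32 members (12.5%), against 13.8% of all genes. Pfkfb2 again lay between, with 10.8, 10.9, 11.3 and 12.2 RPKM in Etv4/5 libraries, against 4.81 to 9.9 in Cop1 deletion and 14.8 to 17.9 in control libraries. Its difference from Cop1 deletion was 0.54 (SE 0.15, adjusted p = 0.0632) and it passed without Cop1 deletion replicates 1 (adjusted p = 0.0331) or 4 (adjusted p = 0.0149) or control replicate 4 (adjusted p = 0.0478). Mlxipl differed by 0.57 (adjusted p = 0.172).

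Set against controls, the Etv1/4/5 libraries of set 1 had 0 of 32 members called by limma, beside 1.32% of all genes (0.899% higher and 0.418% lower), and 1 member with an unadjusted p under 0.05. That member was Txnip, with 135, 171, 177 and 211 RPKM in Etv1/4/5 libraries, against 336, 132 and 401 in controls. The log2 value was -0.61 (adjusted p = 0.433), and -1.10 without the control that carried Esr1 (adjusted p = 0.00367). Groups did not overlap in 3 of 32 members (9.38%), against 14.1% of all genes. Ndrg1 and Vegfa differed from control by -0.02 and -0.06 there.

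The Etv4/5 libraries of set 2 had 4 members below control and 0 above (12.5%), beside 8.74% of all genes, of which 4.99% were above and 3.75% below. These were Pfkfb2, Vegfa, Adm and Ndrg1. Pfkfb2 was at 0.708-fold of control (log2 -0.50, SE 0.15, adjusted p = 0.0383) without overlap. It did not pass without any 1 of the 4 Etv4/5 libraries or control replicates 1 and 2 (adjusted p 0.0602 to 0.0977). Vegfa had 104, 83.4, 85.6 and 81.1 RPKM in Etv4/5 libraries, against 119, 118, 119 and 139 in controls, and fell to 0.714-fold (log2 -0.49, SE 0.10, adjusted p = 0.00261). Its log2 difference from Cop1 deletion alone was -0.09 (adjusted p = 0.594), a p that does not show the 2 groups to be alike.

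Ndrg1 had 84.9, 78.3, 75.1 and 82.1 RPKM in Etv4/5 libraries, against 102, 106, 92.2 and 82.6 in controls, which overlap, and fell to 0.84-fold (log2 -0.25, SE 0.07, adjusted p = 0.0425). This call held in 10 of 22 fits that left out 1 library, with an adjusted p up to 0.137 without control replicate 2, and among the libraries compared it was lost without Etv4/5 replicates 2, 3 and 4 and control replicates 1, 2 and 3. Adm had 0.815 to 1.68 RPKM, against 3.16, 2.05, 1.75 and 6.92 in controls, and fell to 0.466-fold (log2 -1.10, SE 0.31, adjusted p = 0.0326). Without control replicate 4 the Adm value was -0.74 (adjusted p = 0.0929), and it did not pass without control replicate 1 (adjusted p = 0.0686) or Etv4/5 replicates 2, 3 and 4 (adjusted p 0.0753 to 0.104). In a fit of only the 2 groups compared, neither passed (adjusted p = 0.099 for Ndrg1 and 0.0991 for Adm). Pfkfb3 was at 0.90 without control replicate 4 (adjusted p = 0.0334). Groups did not overlap in 6 of 32 members (18.8%), against 21.6% of all genes. The contrasts share their Cop1 deletion or control libraries, so they are not independent of each other.

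The effect of Cop1 deletion was not found to differ between the sets for any member: 0 of 32 passed that test in limma, 2 had an unadjusted p under 0.05, and 2.83% of all genes passed (0.997% higher in set 1 and 1.83% lower). Pfkfb3 had the lowest value, -0.84 (set 1 minus set 2), and -1.31 without set 2 control replicate 4 (adjusted p = 0.0463). Pfkfb2 differed by 0.30 (SE 0.22, adjusted p = 0.505) and Ndrg1 by -0.23 (SE 0.11, adjusted p = 0.31).

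Further genes of the 3 pathways, from lists that hold no member, give the setting. After Cop1 deletion over both sets, 2 of 20 further glycolysis and lactate genes rose and 3 fell, beside 9.57% and 10.5% of all genes. The largest change was in Slc2a2, the glucose transporter of the β cell, which fell by 2.68 on the log2 scale (adjusted p = 1.01e-08). Adpgk, an ADP-dependent glucokinase, fell by 0.33 (adjusted p = 0.000662). Bpgm, which makes the bisphosphoglycerate of red cells, and Pdk2, a kinase that inhibits pyruvate dehydrogenase, rose by 0.25 (adjusted p = 0.000193) and 0.45 (adjusted p = 0.000488).

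Of 16 further ChREBP-responsive genes, 1 rose and 4 fell over both sets, beside the same 9.57% and 10.5%. G6pc2, the islet glucose 6-phosphatase subunit, fell by 1.05 (adjusted p = 8.09e-05), and the lipogenic genes Me1 and Acaca fell by 0.33 (adjusted p = 0.00256) and 0.29 (adjusted p = 0.025). Klf10, a zinc finger repressor, rose by 0.28 over both (adjusted p = 0.045), which did not pass in a fit of only the groups compared (adjusted p = 0.122). Of 25 further hypoxia genes, Rcor2, a corepressor, fell by 0.62 (adjusted p = 0.00149) and 24 did not pass. Within set 2, 3 of the 25 rose and 0 fell, beside 9.09% and 9.75% of all genes. These were Egln2 (by 0.28), Fam162a (by 0.80) and Bnip3l (by 0.42). Without Cop1 deletion replicate 3, Egln2 was at 0.34, Fam162a at 0.50 (adjusted p = 0.0139) and Bnip3l at 0.25 (adjusted p = 0.0592). None of the 3 passed in a fit of only the 2 groups compared (adjusted p 0.184 to 0.262).

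In the Etv1/4/5 libraries Slc2a2 averaged 175.6 RPKM, against 58.9 in Cop1 deletion libraries of set 1 (log2 1.58, adjusted p = 0.000886), and G6pc2 was higher by 1.24 (adjusted p = 0.00142). In all, 2 of 20 further glycolysis genes rose and 2 fell there, 2 of 16 ChREBP genes rose and 1 fell, and 2 of 25 hypoxia genes fell (Gbe1 and Ppp1r3c, both of glycogen metabolism), beside 3.65% of all genes higher and 2.69% lower. Gbe1 did not pass without set 1 Cop1 deletion replicates 2 and 3 or Etv1/4/5 replicates 3 and 4 (adjusted p 0.055 to 0.117), nor Ppp1r3c without Cop1 deletion replicates 2 and 4 or Etv1/4/5 replicate 3 (adjusted p 0.0564 to 0.0859). In the Etv4/5 libraries Slc2a2 was higher than in Cop1 deletion libraries by 1.13 (adjusted p = 0.0245), and by 1.06 without Cop1 deletion replicate 3 (adjusted p = 0.0525). Slc16a3, the lactate exporter, fell by 1.34 (adjusted p = 0.0324), and Fam162a averaged 46.1 RPKM, against 99.1 in Cop1 deletion libraries (log2 -1.0, adjusted p = 0.0227). Without Cop1 deletion replicate 3 these were -0.94 (adjusted p = 0.0477) and -0.69 (adjusted p = 0.0214). None of these 3 calls held in a fit of only the 2 groups compared (adjusted p 0.181 to 0.252), or without Etv4/5 replicate 2, 3 or 4 (adjusted p 0.0771 to 0.121). Of the 20, 16 and 25 genes, 1 rose and 2 fell, 0 passed, and 1 fell in that contrast, beside 0.676% of all genes higher and 1.05% lower. Against control, Slc2a2 was still lower by 2.23 in Etv4/5 libraries, where 1 of 20 further glycolysis genes rose and 6 fell (all genes 4.99% and 3.75%). In Etv1/4/5 libraries 0 of 20 passed against control (all genes 1.32%).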

How the data were processed

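Per the labels' protocols, RNA came from cultured, handpicked islets, was cleaned on columns with DNase and was made into standard Illumina libraries. The authors deposited a single matrix of RPKM values. The genome build named in the submitters' processing notes is mm9. Aligner, counter, annotation and strand use are not given in the sources. Columns were placed by the sample number in each title, and 2 of 24 could not be placed and were not used. Replicates are numbered in accession order. Symbols came from a GRCm38.p6 annotation by NCBI Gene number and matched 24998 of 28059 genes.

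The test used log2(RPKM + 0.5) of the genes that reached 1 RPKM in 4 or more libraries, which understates the change of low genes. limma 3.58.1 in R 4.3.3, with trended and robust variances, fitted 6 group means to 22 libraries in 1 model, and 8 contrasts, all 2-sided, were taken from it. Adjusted p-values are Benjamini-Hochberg values over these 14342 genes, called under 0.05. A fold change is 2 to the power of the log2 value. The fit was tested on simulated data, but the outcome is not given here and no result rests on it. Tables and figures were made in R (data.table, version 1.17.8), Python 3.11.15, pandas 2.3.3, NumPy 2.4.6 and matplotlib 3.10.9. Libraries summed to 569486 to 664207 RPKM (set 1) or 524289 to 682560 RPKM (set 2). Since read numbers are unknown, relative depth was taken from the steps between low values, and no counting interval is given.

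The members and all lists were chosen with earlier results of these data known. Members called in a contrast are given by library, others by range or count, and from each list of further pathway genes at most 4 called genes with the smallest adjusted p are named for each contrast. Mlxipl, Txnip, Hif1a, Pfkfb3, Egln3, Ddit4, Car9, Pfkp, Yod1, Hcn3 and Gm15441 are given in more detail than this rule asks, chosen after their values were seen. Alternatives covered the pseudocount, filter, scaling, model and each library left out in turn.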

Additional observations from a re-analysis of the deposited data

Results flagged for a closer look

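In 128 groups of 4 libraries (32 members, 4 groups of that size), 15 values lay far from the other 3 libraries by Dixon's test, where chance gives about 5% of groups. Of these, 6 were high values of set 2 Cop1 deletion replicate 3: Gpi1 at 64.8 RPKM, Pfkp at 63.9, Pfkfb3 at 37.9, Pgk1 at 4.72, Bnip3 at 28.6 and P4ha1 at 126. Another 6 were high values of set 2 control replicate 4: Pfkfb3 at 26.7 RPKM, Gapdh at 6.15, Pgam1 at 0.922, Vegfa at 139, Egln3 at 14.9 and Ddit4 at 118. Set 2 Etv4/5 replicate 1 had a high Pfkfb4 (2.25 RPKM) and a low Txnip (35.6 RPKM), and set 1 Etv1/4/5 replicate 3 a high Mlx (19.5 RPKM). The test was run on members only, so no share over all genes stands beside these counts. Over all genes, set 2 control replicate 4 was highest of its group in 36.1% and lowest in 43.9%. Set 2 Cop1 deletion replicate 3 was highest in 24.3% and lowest in 26.7%. Values of 1 library are not independent across genes, and the cause of the 2 runs of 6 was not tested.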

How the results depend on the processing

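Over 36 alternatives, 8914 of 9200 values of single members kept their side of the threshold, 144 lost a call and 142 gained one. Of the values called in the main fit, 0 changed sign. Changes of sign in values that were not called were not counted. Counts of members called moved as follows, from 5 over both sets, 2 in set 1 and 7 in set 2 for Cop1 deletion over control, 2 each for Etv1/4/5 and Etv4/5 over Cop1 deletion, 0 and 4 for them over control, and 0 for the difference between sets. Library weights gave 12, 8 and 9, then 5 and 6, then 4 and 13, then 7, and raised the calls over all genes to between 3022 and 6259. Fits of only the groups compared gave 3, 5, 1, 7 and 0 for the first 5 counts. Set 2 libraries with Xist only gave 5 (set 1), 4, 0 and 8 (Etv4/5 over control). Without the filter the counts were 1 and 1 over Cop1 deletion and 1 for Etv4/5 over control. Equal totals gave 4 (set 2) and 1 (Etv4/5 over Cop1 deletion), equal totals without insulin genes 1 and 1 over Cop1 deletion, and no trend 1 (Etv1/4/5 over Cop1 deletion). The 12 alternatives planned besides leaving out 1 library also moved the calls over all genes. These ran from 1572 to 6259, 955 to 5429, 463 to 5035 and 721 to 3712. The later contrasts had 1 to 3217, 140 to 3022, 1059 to 4766 and 63 to 3872. Chosen after seeing the data, leaving out both high libraries gave 4 (set 1) and 1 (difference), and leaving out 3 outlying set 2 libraries gave 8, 5 (set 1), 5 and 1 over Cop1 deletion, 9 (Etv4/5 over control) and 2 (difference). In these 2 added fits calls over all genes ran from 3444 to 3881, 1854 to 3073, 2412 to 3345 and 1528 to 2735. The later contrasts had 253 to 662, 335 to 751, 1612 to 2866 and 939 to 1118. The main fit had 2877, 1195, 2702, 909, 248, 189, 1253 and 406. With 1 library left out, counts ran from 4 to 7, 2 to 3, 3 to 8, 1 to 4, 0 to 10, 0 to 1, 1 to 7 and 0 to 1 in the order above. In these fits, calls over all genes ran from 2274 to 3394, 719 to 1891, 1935 to 3418 and 543 to 1517. For the later contrasts they ran from 15 to 775, 91 to 358, 801 to 1995 and 217 to 843. The causes of these moves were not tested. No paired analysis was possible because the labels carry no replicate numbers shared between groups. Depth is lower in set 1, where low members such as Car9 and Adm are coarse.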
